A study of Homo sapiens with 9 samples.

Results

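Nucleotide sugars are the activated monosaccharides from which glycans are built. Described here are 42 genes of this metabolism, out of 23710 entries in the count table: enzymes that make the donors, salvage or return their precursors, or draw on UDP-glucose, and carriers of the Golgi and endoplasmic reticulum membranes. They do not cover every gene of the pathway. They were chosen by symbol, from knowledge of the pathway. The rule used no measured value, but earlier results of these data were known when it was made. All 42 were in the table, and all 42 passed the filter on low counts, as did 12546 entries in all.

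RNA was sequenced from MDA-MB-231, a human triple-negative breast cancer line whose cells had been given a hairpin in the lentiviral pGIPZ vector. Of 3 hairpins, shUGDH-1 and shUGDH-2 target UGDH and shNT, the control, is non-targeting. There were 3 libraries per hairpin and 9 in all. The line, the vector and the growth medium were common to all groups, and no dose or time after transduction is given. The knockdown libraries also carry the word shNT beside their own hairpin in 1 label, but their description and hairpin sequence name a UGDH hairpin. The labels call the cultures biological replicates without saying that each was transduced separately, and the p-values therefore cover only the spread between libraries, which may be technical.

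UGDH oxidises UDP-glucose to UDP-glucuronate, the donor for hyaluronan, for the sulfated glycosaminoglycans and for glucuronidation. UDP-glucose comes from glucose-6-phosphate by way of glucose-1-phosphate and also feeds glycogen, glucosylceramide and UDP-galactose, while UDP-glucuronate is itself decarboxylated to UDP-xylose. UDP-GlcNAc, CMP-sialic acid, GDP-mannose and GDP-fucose are made by neighbouring routes that start from fructose-6-phosphate, and carriers of the SLC35 family exchange the finished donors for nucleotide monophosphates across the membrane.

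The hairpin sequences are shown because the comparison of both UGDH hairpins depends on their being different sequences. Capitals mark bases 2 to 8 from the 5′ end, taken as the seed, and the sequences are those in the labels. The labels do not say which strand of the hairpin is printed. Both UGDH sequences are the reverse complement of their site in UGDH. For shNT, which has no such site, the strand could not be checked, so its marked bases may not be the seed of its guide.
shUGDH-1: tTGCATCAaatatgcgacg
shUGDH-2: aTATACTTcagatctgctg
shNT: aTCTCGCTtgggcgagagtaag
Their sites in UGDH, on chromosome 4, lay at bases 764 to 782 and 651 to 669 of its longest coding transcript in GENCODE, with the seed match in capitals.
UGDH site of shUGDH-1: cgtcgcatattTGATGCAa
UGDH site of shUGDH-2: cagcagatctgAAGTATAt
A 7-base match to the marked bases occurred somewhere in the longest coding transcript of 8 of 42 members (19.0%) for each of the 3 hairpins. Over 11290 genes searched, the shares were 25.4% for shUGDH-1, 20.5% for shUGDH-2 and 17.7% for shNT.

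UGDH itself was at 7.62, 7.30 and 8.03 CPM (edgeR's scaled counts, on a common library size) with shUGDH-1 and at 8.09, 6.62 and 6.79 CPM with shUGDH-2, against 53.0, 55.6 and 50.3 CPM with shNT. All 6 knockdown libraries lay far below all 3 shNT libraries, and the hairpin groups overlapped each other. Tests throughout are edgeR's quasi-likelihood test, with p adjusted by Benjamini-Hochberg over 12546 genes. UGDH fell to 7.65 ± 0.367 CPM with shUGDH-1 and 7.17 ± 0.802 CPM with shUGDH-2, against 53.0 ± 2.67 CPM with shNT (SD, n = 3 each; log2 fold changes -2.80 and -2.89, adjusted p = 3.9e-36 and 1.2e-36). In bulk RNA, fewer cells of a type and less RNA per cell cannot be told apart. Libraries held 9249738 to 13328002 counts, the lowest in shUGDH-1 replicate 3, and replicate pairs varied by 1.19 to 1.96 times counting noise, with shNT replicate 1 in the 2 highest ratios. The mesenchymal markers of the line were present (VIM at 2140 to 2500 and CD44 at 1110 to 1130 CPM in group means), while ESR1 averaged at most 0.036 CPM and CDH1 at most 0.807 CPM in any group.

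With shUGDH-1, 3 members rose (7.14%) and 5 fell (11.9%), against 10.5% higher and 10.3% lower among all genes tested. With shUGDH-2, 4 members rose (9.52%) and 6 fell (14.3%), against 8.04% higher and 6.81% lower among all genes. The median log2 fold change of the 42 was -0.007 with shUGDH-1 and -0.009 with shUGDH-2, beside -0.003 and -0.006 over all genes tested. GYS1, GNE and GMPPA rose with both hairpins (7.14% of members, against 4.72% of all genes), and PGM2 fell with both (2.38%, against 3.61%). A further 4 members passed with shUGDH-1 and missed the threshold with shUGDH-2, 6 did the reverse, and 28 (66.7%) passed with neither. Both contrasts use the same shNT libraries. The difference between these shares and those of all genes was not tested. DESeq2 called 2 higher and 4 lower with shUGDH-1, 1 higher and 2 lower with shUGDH-2, and 0 with both (6 members moved the same way with both at an unadjusted p under 0.05). The count with both was 1 without shUGDH-2 replicate 1 and 2 without shNT replicate 3.

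**Figure D1:**
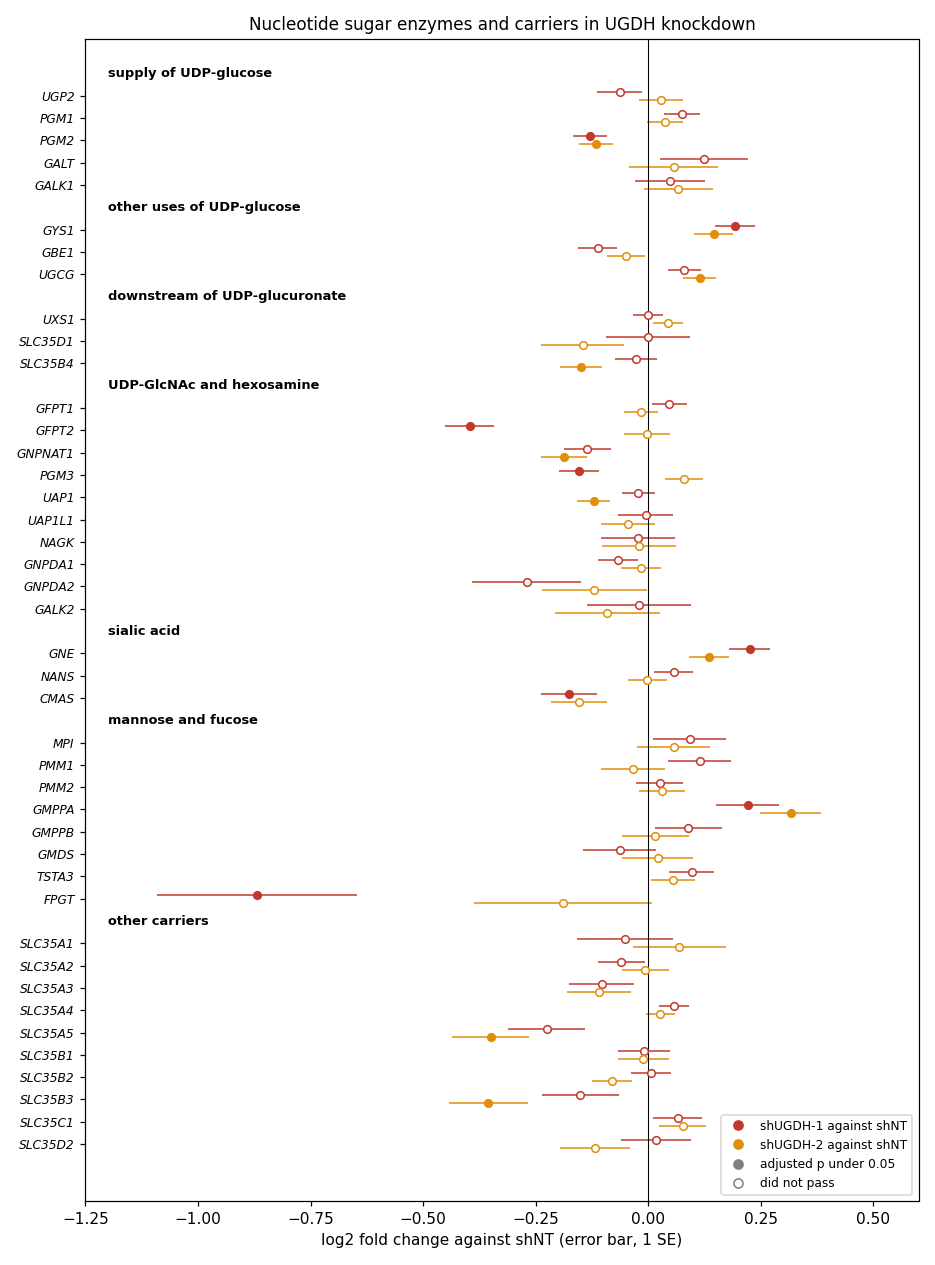
Log2 fold change of each of the 42 members, ordered by role, with shUGDH-1 and with shUGDH-2 against shNT (x axis, log2 scale; bars, 1 standard error; filled points have an adjusted p under 0.05). Most members lie near 0, FPGT and GFPT2 lie lowest with shUGDH-1, and GMPPA lies highest with shUGDH-2.

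Of the 5 enzymes that supply UDP-glucose, only PGM2 passed, and it fell with both hairpins. PGM2, a phosphoglucomutase relative that mainly handles pentose phosphates, was at 105, 105 and 110 CPM with shUGDH-1 and at 104, 108 and 111 CPM with shUGDH-2, against 116, 118 and 116 CPM with shNT. Every knockdown library lay below every shNT library. With shUGDH-1, PGM2 fell by 8.60% (log2 fold change -0.13, SE 0.038, adjusted p = 0.0089, edgeR). With shUGDH-2, it fell by 7.75% (-0.12, SE 0.038, adjusted p = 0.025). UGP2, which makes UDP-glucose from glucose-1-phosphate and UTP, was at 59.7, 60.4 and 60.1 CPM with shUGDH-1 and at 66.7, 64.8 and 60.4 CPM with shUGDH-2, against 65.2, 62.0 and 60.8 CPM with shNT. Its shUGDH-1 libraries all lay just under shNT and its shUGDH-2 libraries overlapped shNT. The 95% intervals of its log2 fold change ran over -0.18 to 0.06 with shUGDH-1 and -0.09 to 0.15 with shUGDH-2. They leave out a change as large as that of UGDH, the hairpins' own target. The shUGDH-1 interval still holds a fall as large as that of PGM2 with that hairpin (-0.13). PGM1, the main phosphoglucomutase, had log2 fold changes of 0.07 and 0.04 (adjusted p = 0.20 and 0.61), GALK1, which phosphorylates galactose, of 0.05 and 0.07, and GALT, which moves UMP between UDP-glucose and galactose-1-phosphate, of 0.12 and 0.06. A same-strand gene absent from the count table covers 11.2% of the exonic bases of GALT. The PGM2 call ended without shUGDH-1 replicate 1 or 2 with that hairpin, and with shUGDH-2 by DESeq2 or without shUGDH-2 replicate 1 or 2 or shNT replicate 2 or 3; over all 15 alternatives adjusted p spanned 0.0091 to 0.062 with shUGDH-1 and 0.025 to 0.18 with shUGDH-2.

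Of the 3 members grouped as other uses of UDP-glucose, GYS1 and UGCG lay on the higher side. GBE1, the glycogen branching enzyme, lay on the lower side. UGGT1, ALG5 and GYG1, further users of UDP-glucose outside the members, passed with neither hairpin. Their log2 fold changes, shUGDH-1 first, were 0.00 and -0.02 for UGGT1, -0.02 and -0.07 for ALG5, and 0.05 and -0.07 for GYG1. GYS1, the glycogen synthase of muscle and most other tissues, was at 86.2, 88.2 and 89.1 CPM with shUGDH-1 and at 87.3, 84.9 and 82.4 CPM with shUGDH-2, against 72.4, 78.4 and 79.7 CPM with shNT. All 6 knockdown libraries exceeded all 3 shNT libraries. GYS1 rose by 14.3% with shUGDH-1 (log2 fold change 0.19, SE 0.044, adjusted p = 0.00067, edgeR) and by 10.6% with shUGDH-2 (0.15, SE 0.044, adjusted p = 0.016). UGCG, which transfers glucose to ceramide, was at 135, 136 and 130 CPM with shUGDH-1 and at 133, 145 and 133 CPM with shUGDH-2, against 131, 123 and 126 CPM with shNT. It rose with shUGDH-2, whose libraries all lay above shNT (log2 fold change 0.11, SE 0.037, adjusted p = 0.025), while shUGDH-1 overlapped shNT (0.08, adjusted p = 0.12). GBE1, the branching enzyme, averaged 81.5 ± 2.21 CPM with shUGDH-1 and 85.0 ± 1.74 CPM with shUGDH-2, against 88.0 ± 3.44 CPM with shNT (SD, n = 3 each), and passed with neither (adjusted p = 0.055 and 0.51). With shUGDH-2, GYS1 was lost by DESeq2 or without shUGDH-2 replicate 1 (0.13) or shNT replicate 1 (0.10; adjusted p 0.011 to 0.16 over the 15 alternatives). UGCG was lost by DESeq2 or without shUGDH-2 replicate 2 (0.07) or shNT replicate 2 or 3 (0.10 and 0.11; adjusted p 0.0067 to 0.25).

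Downstream of UDP-glucuronate, the transcripts of UXS1 and SLC35D1 passed with neither hairpin, and SLC35B4 fell with shUGDH-2. UXS1, which decarboxylates UDP-glucuronate to UDP-xylose, was at 149, 146 and 147 CPM with shUGDH-1 and at 151, 149 and 156 CPM with shUGDH-2, against 147, 147 and 148 CPM with shNT. The shUGDH-1 group overlapped shNT and the shUGDH-2 group lay slightly above it, with 95% intervals of the log2 fold change of -0.08 to 0.08 and -0.04 to 0.12. SLC35D1, which carries UDP-glucuronate into the endoplasmic reticulum, was at 19.7, 17.2 and 20.2 CPM with shUGDH-1 and at 17.4, 18.8 and 15.0 CPM with shUGDH-2, against 17.9, 21.8 and 17.2 CPM with shNT. These groups overlapped, and the intervals were wider at this lower level, -0.23 to 0.23 with shUGDH-1 and -0.37 to 0.08 with shUGDH-2. SLC35B4, a carrier of UDP-xylose and UDP-GlcNAc, was at 70.5, 68.3 and 72.2 CPM with shUGDH-1 and at 61.9, 65.8 and 65.6 CPM with shUGDH-2, against 70.7, 70.1 and 73.8 CPM with shNT. All shUGDH-2 libraries lay below the other 6, and SLC35B4 fell by 9.80% with shUGDH-2 (log2 fold change -0.15, SE 0.047, adjusted p = 0.021, edgeR), against -0.03 with shUGDH-1 (adjusted p = 0.75). The difference of shUGDH-2 against shUGDH-1 did not pass (-0.12, adjusted p = 0.088). The SLC35B4 call ended by DESeq2 and without shUGDH-2 replicate 1 or shNT replicate 3 (adjusted p 0.021 to 0.15 over the 15 alternatives).

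**Figure D2:**
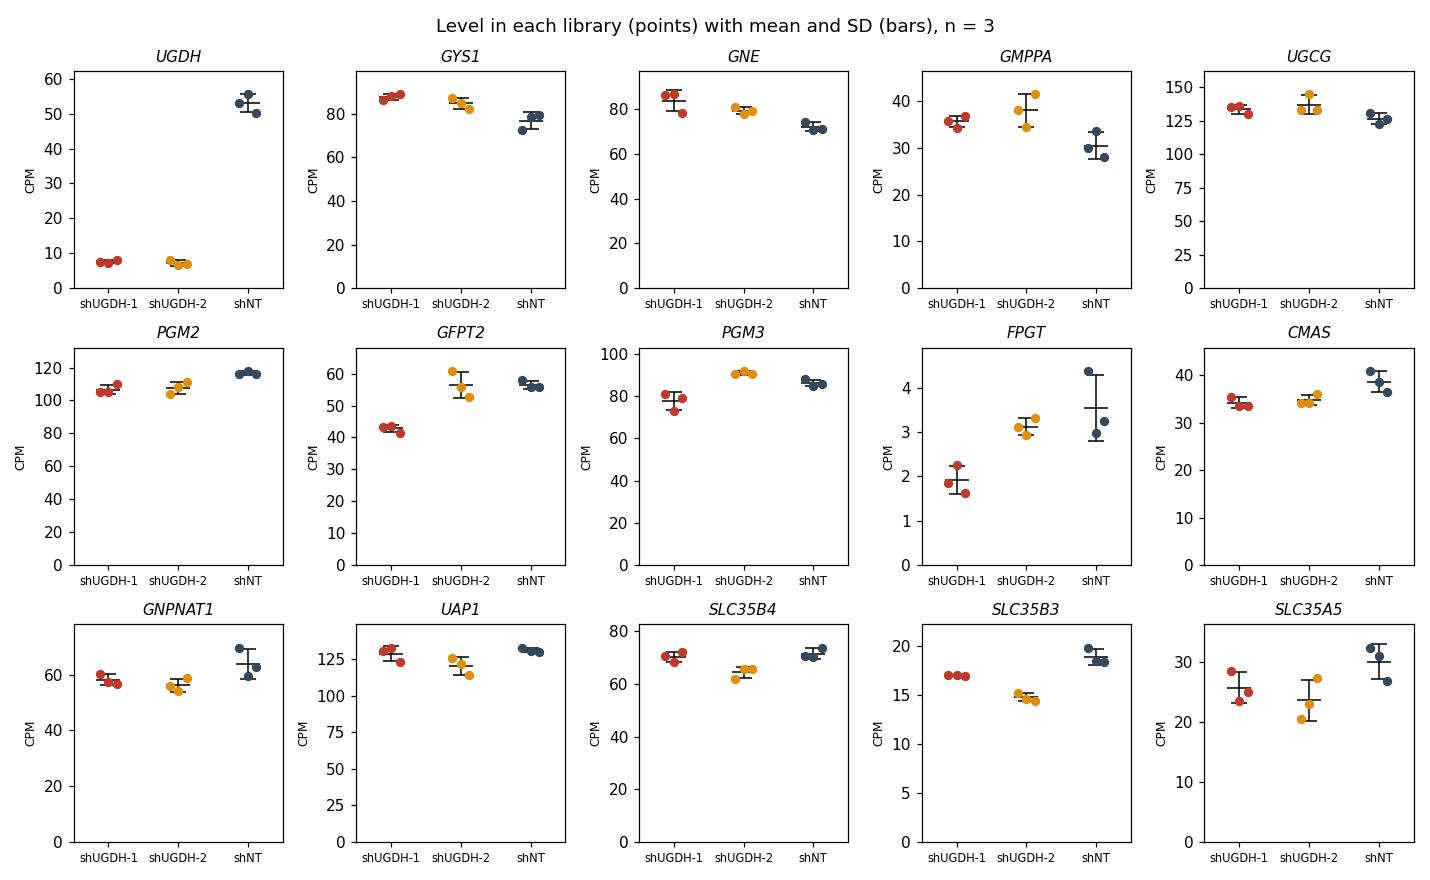
CPM in each library (points) with the mean and SD of 3 libraries (bars) for UGDH and the 14 members that passed with a hairpin, with shUGDH-1, shUGDH-2 and shNT side by side and each y axis starting at 0. UGDH separates by far more than any member, and GFPT2 is low in the shUGDH-1 libraries.

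The hexosamine route held the member with the smallest adjusted p, GFPT2 with shUGDH-1. Of its 10 members, 2 fell with shUGDH-1 (GFPT2 and PGM3) and 2 with shUGDH-2 (GNPNAT1 and UAP1), and none rose. Among all genes tested, 10.3% were lower with shUGDH-1 and 6.81% with shUGDH-2. DESeq2 called 2 lower with shUGDH-1 and 0 with shUGDH-2, where 2 were lower at an unadjusted p under 0.05 by edgeR. Fitted log2 fold changes were below 0 for 9 of 10 with each hairpin, against 6378 of 12546 genes with shUGDH-1 and 6510 with shUGDH-2. Several lay close to 0, such as UAP1L1 with shUGDH-1 (-0.006) and GFPT2 and GFPT1 with shUGDH-2 (-0.003 and -0.016). Both counts use the same shNT libraries, so they are not independent, and the shares were not tested. The medians were -0.045 with shUGDH-1 and -0.033 with shUGDH-2, beside -0.003 and -0.006 over all genes. GFPT2, one of the pair of enzymes that commit fructose-6-phosphate to this route, was at 43.4, 43.6 and 41.5 CPM with shUGDH-1 and at 60.9, 55.7 and 52.8 CPM with shUGDH-2, against 57.9, 55.8 and 55.8 CPM with shNT. All shUGDH-1 libraries lay below the other 6, and shUGDH-2 overlapped shNT. GFPT2 fell by 24.0% with shUGDH-1 (log2 fold change -0.40, SE 0.055, adjusted p = 8e-08, edgeR), and with shUGDH-2 its fold change was 0.00 (95% interval -0.13 to 0.12, adjusted p = 0.98). Its paralog GFPT1 had 0.05 and -0.02 (adjusted p = 0.42 and 0.84). Per kilobase of transcript, GFPT2 made up 66.9, 68.3 and 66.2% of the sum of both in shUGDH-1 libraries and 75.4, 72.8 and 73.3% in shUGDH-2 libraries, against 73.7, 74.1 and 73.1% with shNT. The share was lower in each shUGDH-1 library than in any other. Its size depends on the transcript lengths, here the mean ones. With shNT, GFPT1 had 0.358 times the level of GFPT2 by mean length and 0.760 times by the longest transcript. Before division by length the order was the reverse, GFPT1 averaging 121 CPM and GFPT2 56.5 CPM with shNT.

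PGM3, which moves the phosphate of N-acetylglucosamine from carbon 6 to carbon 1, was at 80.9, 72.9 and 79.1 CPM with shUGDH-1 and at 90.4, 92.0 and 90.7 CPM with shUGDH-2, against 88.0, 85.0 and 85.6 CPM with shNT. The shUGDH-1 libraries lay below shNT and the shUGDH-2 libraries above it. It fell by 10.1% with shUGDH-1 (log2 fold change -0.15, SE 0.044, adjusted p = 0.0074, edgeR) and had 0.08 with shUGDH-2 (adjusted p = 0.23). Exons of DOPEY1, on the opposite strand, cover 14.8% of PGM3's, strand use in the counting is not given, and DOPEY1 itself had -0.09 and 0.05 (adjusted p = 0.69 and 0.83). GNPNAT1, which acetylates glucosamine-6-phosphate, was at 60.4, 57.5 and 56.7 CPM with shUGDH-1 and at 55.9, 54.1 and 58.7 CPM with shUGDH-2, against 69.7, 59.4 and 62.6 CPM with shNT. With shUGDH-2 it lay below every shNT library and fell by 12.2% (-0.19, SE 0.052, adjusted p = 0.0091), and with shUGDH-1 it had -0.14 (adjusted p = 0.059). An opposite-strand transcript that was not analysed here covers 35.6% of its exons. UAP1, which makes UDP-GlcNAc in the last step, was at 131, 133 and 123 CPM with shUGDH-1 and at 126, 122 and 114 CPM with shUGDH-2, against 133, 131 and 130 CPM with shNT. It fell by 8.05% with shUGDH-2 (-0.12, SE 0.037, adjusted p = 0.019), all of whose libraries lay below shNT, and had -0.02 with shUGDH-1 (adjusted p = 0.75).

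The GFPT2 call held in all 15 alternatives. PGM3 with shUGDH-1 was lost without shUGDH-1 replicate 2 (-0.11, adjusted p = 0.14, lowest 0.0048 elsewhere), and the calls of GNPNAT1 and UAP1 were lost by DESeq2. GNPNAT1 was also lost without shNT replicate 1 (-0.12) or shUGDH-2 replicate 2 (-0.16; adjusted p 0.0018 to 0.19 over the 15 alternatives), and UAP1 without shUGDH-2 replicate 3 (-0.08) or shNT replicate 1 (-0.11; 0.012 to 0.21). Of the other hexosamine genes, UAP1L1, the UAP1 paralog, had log2 fold changes of -0.01 with shUGDH-1 and -0.05 with shUGDH-2. NAGK, which salvages N-acetylglucosamine, had -0.02 with each. For the deaminases that return glucosamine-6-phosphate to fructose-6-phosphate, the values in the same order were -0.07 and -0.02 (GNPDA1) and -0.27 and -0.12 (GNPDA2). GALK2, a kinase of N-acetylgalactosamine, had -0.02 and -0.09, and opposite-strand FAM227B, with 33 counts in all libraries, covers 12.1% of its exons. None of these 5 passed, the smallest adjusted p being 0.11 for GNPDA2 with shUGDH-1, where it averaged 8.70 CPM against 10.6 CPM with shNT. Matches to the seed of shUGDH-1 were present in the longest transcripts of GFPT2 and PGM3, which fell with it, and of GFPT1 and GALK2, which did not pass, 1 in each. For the seed of shUGDH-2 there were 2 in GNPNAT1, which fell with it, 0 in UAP1, which also fell, and 3 in GFPT1, 2 in GNPDA2 and 1 in PGM3, none of which passed with it. PGM3 also held 1 match to the seed of shNT. The matches thus lay in members that passed and in members that did not, and their part in the changes was not tested. GNPNAT1 and UAP1 did not pass between the hairpins (shUGDH-2 against shUGDH-1, adjusted p = 0.63 and 0.081).

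In sialic acid synthesis, GNE rose with both hairpins and CMAS fell with shUGDH-1. GNE, whose enzyme turns UDP-GlcNAc into N-acetylmannosamine and phosphorylates it, was at 86.5, 86.7 and 78.2 CPM with shUGDH-1 and at 80.8, 77.8 and 79.0 CPM with shUGDH-2, against 74.3, 70.8 and 71.0 CPM with shNT. Every knockdown library lay above every shNT library. It rose by 16.9% with shUGDH-1 (log2 fold change 0.22, SE 0.045, adjusted p = 0.00012, edgeR) and by 9.84% with shUGDH-2 (0.14, SE 0.045, adjusted p = 0.033). CMAS, which activates sialic acid to CMP-sialic acid, was at 35.5, 33.6 and 33.5 CPM with shUGDH-1 and at 34.2, 34.2 and 36.0 CPM with shUGDH-2, against 40.9, 38.5 and 36.5 CPM with shNT. All knockdown libraries lay below shNT, by a narrow gap, and the fold changes were -0.18 (SE 0.062, adjusted p = 0.035) and -0.15 (adjusted p = 0.087). NANS, the sialic acid phosphate synthase between them, had 0.06 and 0.00. GNE with shUGDH-2 was lost by DESeq2 or without shUGDH-2 replicate 1 or 3 or shNT replicate 2 or 3 (adjusted p 0.021 to 0.12 over the 15 alternatives), and CMAS by DESeq2 or without shUGDH-1 replicate 2 or 3 or shNT replicate 1 or 2 (0.020 to 0.21).

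Among the 8 genes of mannose and fucose activation, GMPPA rose with both hairpins and FPGT fell with shUGDH-1. GMPPA, the regulatory partner of the GDP-mannose pyrophosphorylase GMPPB, was at 35.8, 34.3 and 36.8 CPM with shUGDH-1 and at 38.1, 34.4 and 41.5 CPM with shUGDH-2, against 30.0, 33.5 and 28.0 CPM with shNT. Both knockdown groups lay above shNT and overlapped each other, and shNT replicate 2 came close to their lowest libraries. It rose by 16.6% with shUGDH-1 (log2 fold change 0.22, SE 0.070, adjusted p = 0.016, edgeR) and by 24.5% with shUGDH-2 (0.32, SE 0.068, adjusted p = 0.00057). GMPPB, the catalytic subunit, had 0.09 and 0.02 (adjusted p = 0.45 and 0.93), and 42.3% of its exonic bases overlap AMIGO3 on the same strand, so reads of both cannot be told apart there. FPGT, which salvages fucose as GDP-fucose, had 24, 30 and 15 counts with shUGDH-1 and 37, 38 and 41 counts with shUGDH-2, against 57, 35 and 38 counts with shNT. All shUGDH-1 libraries were below the other 6, with shNT replicate 1 the highest. The read-through gene FPGT-TNNI3K covers 10.8% of its exonic bases and had 0 counts. FPGT averaged 1.91 ± 0.319 CPM with shUGDH-1 and 3.12 ± 0.193 CPM with shUGDH-2, against 3.53 ± 0.746 CPM with shNT (SD, n = 3 each), and fell by 45.3% with shUGDH-1 (-0.87, SE 0.223, adjusted p = 0.0025) while its log2 fold change with shUGDH-2 was -0.19 (adjusted p = 0.60).

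The other genes of these routes passed with neither hairpin. With shUGDH-1 and shUGDH-2, the log2 fold changes were 0.09 and 0.06 for MPI, which links fructose-6-phosphate to mannose-6-phosphate, 0.11 and -0.03 for PMM1 and 0.02 and 0.03 for PMM2, the phosphomannomutases. Opposite-strand exons of FAM219B cover 24.6% of those of MPI. For the enzymes that convert GDP-mannose to GDP-fucose, the values in the same order were -0.06 and 0.02 (GMDS) and 0.10 and 0.05 (TSTA3). GMPPA with shUGDH-1 was lost by DESeq2 and without shUGDH-1 replicate 3 or shNT replicate 3 (adjusted p 0.0026 to 0.12 over the 15 alternatives). FPGT with shUGDH-1 was lost without shNT replicate 1 (-0.68, adjusted p = 0.057, lowest 0.0017 elsewhere).

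Of the 12 SLC35 carriers, 0 passed with shUGDH-1 by edgeR and 0 by DESeq2 (1 was lower at an unadjusted p under 0.05). Among all genes tested, 10.5% were higher and 10.3% lower with that hairpin. With shUGDH-2, 3 carriers fell, SLC35B4 above and SLC35A5 and SLC35B3. That is 25% of the carriers, against 6.81% lower among all genes tested, and DESeq2 called 2 of them. The difference between these shares was not tested with either hairpin. The carriers' median log2 fold change was -0.018 with shUGDH-1 and -0.096 with shUGDH-2, beside -0.003 and -0.006 over all genes. SLC35B3, which carries the sulfate donor PAPS, was at 17.0, 17.0 and 16.9 CPM with shUGDH-1 and at 15.2, 14.6 and 14.4 CPM with shUGDH-2, against 19.8, 18.4 and 18.3 CPM with shNT. The 3 groups did not overlap, with shUGDH-2 lowest and shNT highest. SLC35B3 fell by 21.8% with shUGDH-2 (-0.35, SE 0.088, adjusted p = 0.0027, edgeR), a call that held in all 15 alternatives, and had -0.15 with shUGDH-1 (adjusted p = 0.23). SLC35B2, the other PAPS carrier, had 0.01 with shUGDH-1 and -0.08 with shUGDH-2 (adjusted p = 0.95 and 0.24). SLC35A5 was at 28.5, 23.5 and 25.0 CPM with shUGDH-1 and at 20.4, 23.0 and 27.2 CPM with shUGDH-2, against 32.3, 30.9 and 26.7 CPM with shNT. It fell by 21.5% with shUGDH-2 although its highest library lay above the lowest of shNT (-0.35, SE 0.086, adjusted p = 0.0039), and had -0.23 with shUGDH-1 (adjusted p = 0.056). The SLC35A5 call ended without shUGDH-2 replicate 1 (-0.26, adjusted p = 0.051, lowest 9.7e-05 elsewhere).

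The remaining carriers passed with neither hairpin. Their log2 fold changes, shUGDH-1 first, were -0.05 and 0.07 for SLC35A1, the CMP-sialic acid carrier, -0.06 and -0.01 for SLC35A2, the UDP-galactose carrier, and 0.06 and 0.08 for SLC35C1, the GDP-fucose carrier. SLC35A3, a UDP-GlcNAc carrier and a relative of SLC35A5, had -0.10 and -0.11, with shNT libraries at 42.5, 34.7 and 32.3 CPM that overlapped both knockdown groups. SLC35A4 had 0.06 and 0.03, SLC35D2 0.02 and -0.12, and SLC35B1, which brings ATP into the endoplasmic reticulum, -0.01 with each. Same-strand genes absent from the count table cover 55.5% of the exonic bases of SLC35A1 and 46.8% of those of SLC35D2. Whether reads are shared there was not examined.

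**Figure D3:**
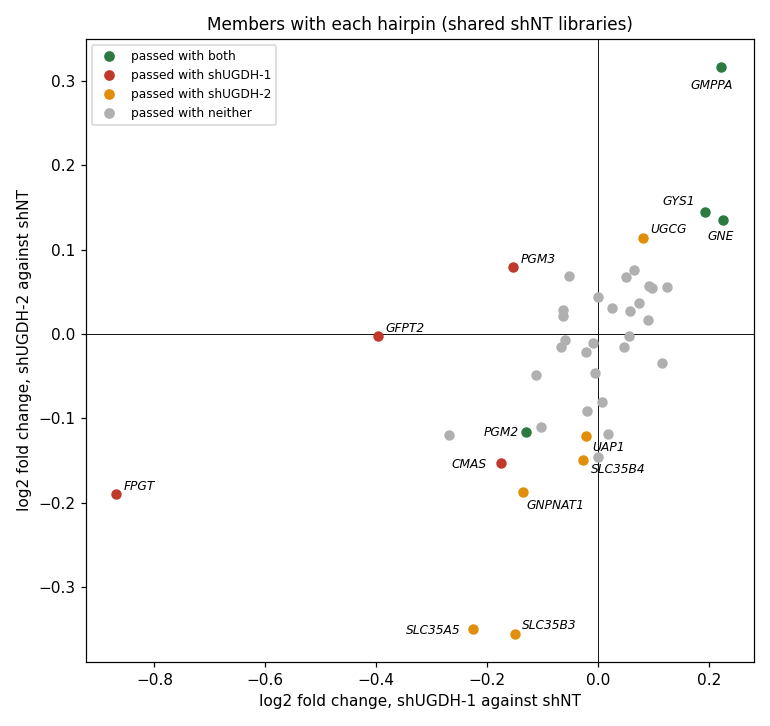
Log2 fold change of each member with shUGDH-1 (x axis) and with shUGDH-2 (y axis) against shNT, coloured by the hairpin or hairpins with which it passed. Both axes use the same 3 shNT libraries, so the 2 values of a member are not independent, and GMPPA, GYS1 and GNE stand at the upper right.

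Set directly against each other, the hairpins differed in 3 members, all higher with shUGDH-2 (7.14%, against 5.36% of all genes), and 0 were lower (5.51% of all genes were; 5 members were lower at an unadjusted p under 0.05 by edgeR, and DESeq2 called 2 higher and 0 lower). GFPT2 averaged 56.4 ± 4.12 CPM with shUGDH-2 and 42.8 ± 1.18 CPM with shUGDH-1 (SD, n = 3 each), 31.3% higher (log2 fold change 0.39, SE 0.055, adjusted p = 1.5e-07, edgeR). PGM3 averaged 91.1 ± 0.862 CPM with shUGDH-2 and 77.6 ± 4.21 CPM with shUGDH-1, 17.5% higher (0.23, SE 0.044, adjusted p = 6.2e-05). Both differences held in all 15 alternatives. FPGT was 60.1% higher with shUGDH-2 than with shUGDH-1 (0.68, SE 0.229, adjusted p = 0.042), and this call ended by DESeq2 and without any 1 of shUGDH-1 replicates 1 and 3 and the 3 shUGDH-2 replicates (adjusted p 0.034 to 0.17). Without shUGDH-1 replicate 3 or without shUGDH-2 replicate 1, 1 member was lower. For UGDH the hairpins did not differ by this test (-0.09, adjusted p = 0.74).

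The start regions of the 4 members that changed with both hairpins are printed because these members moved the same way under 2 different hairpin sequences. Each runs from 250 bases before to 50 after the RefSeq start of GRCh38.p14, 5′ to 3′ on the gene's strand, and capitals mark matches on either strand to an E-box (CACGTG) or to a short antioxidant element (TGACNNNGC).
GYS1, chr19:48993260-48993559, minus strand: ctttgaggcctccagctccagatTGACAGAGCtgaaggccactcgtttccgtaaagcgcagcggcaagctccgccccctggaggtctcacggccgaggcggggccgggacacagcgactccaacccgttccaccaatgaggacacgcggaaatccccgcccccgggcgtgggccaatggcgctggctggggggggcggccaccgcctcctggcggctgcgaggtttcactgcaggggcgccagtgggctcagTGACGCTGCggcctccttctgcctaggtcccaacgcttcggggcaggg
GNE, chr9:36276929-36277228, minus strand, the first of 2 windows: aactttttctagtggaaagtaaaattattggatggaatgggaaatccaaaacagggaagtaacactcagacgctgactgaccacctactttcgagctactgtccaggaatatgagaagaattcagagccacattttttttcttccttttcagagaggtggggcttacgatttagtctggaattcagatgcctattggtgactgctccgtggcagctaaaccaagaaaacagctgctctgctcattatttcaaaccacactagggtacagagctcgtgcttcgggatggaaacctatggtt
GMPPA, chr2:219498641-219498940, plus strand: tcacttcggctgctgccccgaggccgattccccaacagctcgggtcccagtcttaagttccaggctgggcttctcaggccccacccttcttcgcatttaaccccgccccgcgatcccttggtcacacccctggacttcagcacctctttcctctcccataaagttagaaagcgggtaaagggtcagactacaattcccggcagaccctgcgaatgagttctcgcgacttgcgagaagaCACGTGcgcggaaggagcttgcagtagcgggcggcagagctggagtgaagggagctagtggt
PGM2, chr4:37826436-37826735, plus strand: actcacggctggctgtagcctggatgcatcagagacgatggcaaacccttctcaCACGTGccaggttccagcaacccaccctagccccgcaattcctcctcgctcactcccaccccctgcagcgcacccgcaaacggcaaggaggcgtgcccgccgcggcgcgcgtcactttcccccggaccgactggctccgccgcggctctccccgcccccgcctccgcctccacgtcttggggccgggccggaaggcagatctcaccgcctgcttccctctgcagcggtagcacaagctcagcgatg
GYS1 held 2 antioxidant matches, at -227 and 3 from the start, GMPPA held an E-box at -12 and PGM2 one at -196, and GNE held neither motif. The E-box occurred in 9 of 40 members with a window (22.5%), against 8.77% of 27305 genes, and TGACNNNGC in 9 of 40 (22.5%), against 16.1%. The sterol element TCACNCCAC occurred in 0 of 40, against 1.39%. The 27305 genes were not limited to those that passed the filter on low counts, whereas all members passed it. The difference between these shares was not tested. GC content was 69.3% for GYS1, 43.3% for GNE, 59.3% for GMPPA and 68.7% for PGM2. A match describes letters in the window and not a bound site.

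Levels within shNT cells, in CPM per kilobase of transcript, placed UXS1 highest of the 42 at 129 ± 0.506, followed by NANS at 74.3 ± 0.598, TSTA3 at 68.9 ± 1.44 and UGP2 at 61.1 ± 2.22 (SD, n = 3). FPGT was lowest at 2.74 ± 0.577, then SLC35D1 at 3.08 ± 0.402 and GNPDA2 at 5.50 ± 0.592. FPGT and SLC35D1 lie within their spread of each other, as do SLC35A4 at 60.3 ± 0.231 and UGP2. UGDH stood at 34.7 ± 1.73, so UXS1, next in the route, had 3.73 times its level per kilobase (4.24 times with the longest transcript as the length). UAP1 had 5.02 times the level of UAP1L1, SLC35B2 4.47 times that of SLC35B3, GNPDA1 9.99 times that of GNPDA2, GMPPB 0.305 times that of GMPPA (0.254 times with the longest transcript) and GFPT1 0.358 times that of GFPT2 (0.760 times with the longest transcript). Before division by length, GMPPB and GMPPA averaged 25.9 and 30.5 CPM with shNT, so their ratio rests largely on the lengths used. The exons of GMPPB also overlap AMIGO3 by 42.3%. PGM1 had 0.693 times the level of PGM2 by mean length and 1.07 times by the longest transcript. UXS1 stayed first and FPGT last with the longest transcript, whereas UGP2 took rank 10 and 11 of 42 members moved by over 5 ranks. Lengths come from GENCODE on GRCh38, whereas the authors' build was hg19.

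**Figure D4:**
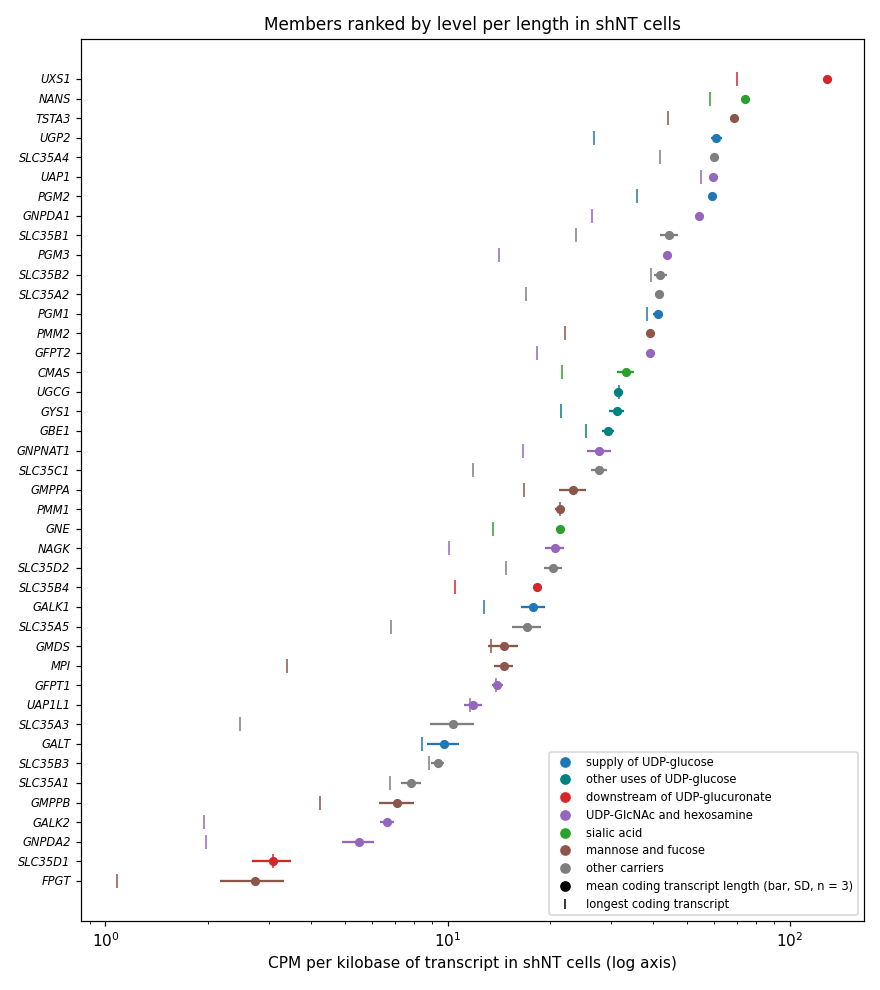
Level of each member in shNT cells, in CPM per kilobase of transcript (x axis, log scale), as the mean of 3 libraries with its SD (points and bars, mean transcript length) and with the longest transcript as the length (ticks), coloured by role. UXS1 at 129 and FPGT at 2.74 mark the ends of the range.

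Of 28 further genes of the pathway, 25 were tested. With shUGDH-1, 8% of these were higher and 12% lower, against 10.5% and 10.3% of all genes tested. With shUGDH-2, 0% were higher and 8% lower, against 8.04% and 6.81% of all genes. The difference between these shares was not tested. With shUGDH-1, 2 rose, by log2 fold changes of 0.24 for PGM2L1, which makes a glucose bisphosphate, and 0.14 for PAPSS2. HK2, DPM1, which makes dolichol-phosphate-mannose (-0.23), and TMEM165, a Golgi protein of manganese supply (-0.16), fell with that hairpin, 3 in all. With shUGDH-2, 0 rose by edgeR (0 also at an unadjusted p under 0.05, and 0 by DESeq2) and 2 fell, HK2 and AMDHD2, a deacetylase that returns N-acetylglucosamine phosphate to the pool (-0.38). HK2, a hexokinase that makes glucose-6-phosphate, fell with both: it was at 76.6, 74.3 and 77.8 CPM with shUGDH-1 and at 76.4, 78.1 and 83.0 CPM with shUGDH-2, against 90.3, 83.8 and 89.2 CPM with shNT. The groups did not overlap between knockdown and shNT libraries, and the log2 fold changes were -0.21 (SE 0.045, adjusted p = 3e-04, edgeR) and -0.15 (SE 0.044, adjusted p = 0.013). HK2 with shUGDH-2 was lost by DESeq2 or without shUGDH-2 replicate 1 or 2 or shNT replicate 1 or 3 (adjusted p 0.0056 to 0.10 over the 15 alternatives). PAPSS2, a PAPS synthase that feeds the carriers SLC35B2 and SLC35B3, averaged 183 ± 3.97 CPM with shUGDH-1 and 163 ± 1.84 CPM with shUGDH-2, against 166 ± 5.24 CPM with shNT (SD, n = 3 each).

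In the authors' deposited tables, 3 members were higher and 4 lower with shUGDH-1, and 2 were higher and 3 lower with shUGDH-2, at an adjusted p under 0.05. All 7 and all 5 were among those called here. Called here but not there were CMAS with shUGDH-1, and GYS1, UGCG, GNPNAT1, UAP1 and SLC35A5 with shUGDH-2. Both sets of calls rest on the same libraries, and the authors' shares over all genes were not computed. For the 4 members that changed with both hairpins here, the authors' deposited table for shUGDH-1 gives log2 fold changes of 0.19 for GYS1, 0.22 for GNE, 0.22 for GMPPA and -0.13 for PGM2. The authors' deposited table for shUGDH-2 calls GNE, GMPPA and PGM2, at 0.13, 0.30 and -0.11, and does not call GYS1.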

How the data were processed

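RNA of 9 libraries of MDA-MB-231 cells (3 hairpins, 3 libraries each) was sequenced as read pairs, per the labels' protocols. The authors deposited raw read counts per gene: whole numbers with no normalization. Their comparison tables hold a mean signal (baseMean, per the file headers), log2 fold changes with standard errors, a test statistic (a score) and p-values, and were used only beside the calls made here. The submitters' processing notes name hg19, STAR, DESeq and DESeq2. Versions, annotation, counter and strand use were not given in the sources used here. Of 23710 entries, 28 had symbols turned to dates (0.232% of counts) and were kept unnamed.

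Counts were filtered with filterByExpr (12546 genes, 99.93% of counts), scaled by TMM (factors 0.997 to 1.003) and modelled by edgeR 4.0.16 (R 4.3.3, limma 3.58.1) with robust quasi-likelihood, 1 mean per group and all 9 libraries. Residual degrees of freedom numbered 6, and the common biological coefficient of variation was 0.0202. P-values were adjusted by Benjamini-Hochberg over all genes, with 0.05 as the threshold. Alternatives were DESeq2 1.42.0, its size factors in edgeR (RLE), no filter, only the 2 groups compared, a non-robust fit, a replicate block and each library left out. The code was tested on simulated data. Seed matches and lengths used GENCODE v29, and start regions RefSeq, both on GRCh38, with no coordinate converted. Start regions were matched for 40 of 42 members. The 95% intervals took the standard error of the test and a t distribution on the 6 residual degrees of freedom. The p-values came from the moderated quasi-likelihood test, so intervals and p-values need not match. Intervals cover counting error and replicate spread only.

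Members and lists were chosen with earlier results of these data known. Named were UGDH, UGP2, UXS1, SLC35D1, SLC35B4, every member that passed, the 3 highest and 3 lowest of the others, paralogs of these, and further pathway genes that passed with both hairpins. PGM2L1, PAPSS2, DPM1, TMEM165, AMDHD2, UGGT1, ALG5 and GYG1 were named after their values were seen. So were the genes that overlap members (AMIGO3, DOPEY1, FAM219B, FAM227B, FPGT-TNNI3K). The remaining members were named to account for all 42.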

Additional observations from a re-analysis of the deposited data

Results flagged for a closer look

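The test of shUGDH-2 against shUGDH-1 found a different effect of the hairpins on 3 members, by edgeR's quasi-likelihood test over all genes. GFPT2 had a log2 difference of 0.39 between the hairpins, in favour of shUGDH-2. PGM3 had a difference of 0.23 and FPGT of 0.68 in the same direction. FPGT rests on 15 to 41 counts per knockdown library. UGDH was at like levels in both hairpin groups, 7.17 ± 0.802 CPM with shUGDH-2 and 7.65 ± 0.367 CPM with shUGDH-1 (SD, n = 3 each). The longest transcript of GFPT2 held 1 match to the seed of shUGDH-1 and 0 to that of shUGDH-2. That of PGM3 held 1 to each of these seeds and 1 to bases 2 to 8 of the printed shNT sequence. That of FPGT held 0 to each. The part of these matches in the differences was not tested.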

How the results depend on the processing

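By DESeq2, all genes higher and lower numbered 876 and 753 with shUGDH-1. The counts were 611 and 400 with shUGDH-2 and 407 and 383 for shUGDH-2 against shUGDH-1, while members with shUGDH-2 numbered 1 higher and 2 lower, and 0 changed with both. Leaving out 1 library at a time gave 2 to 6 members lower with shUGDH-1, 2 to 4 higher and 3 to 6 lower with shUGDH-2, 0 to 1 lower for shUGDH-2 against shUGDH-1, 1 to 4 with both, and 496 to 815 of all genes lower with shUGDH-2. The libraries behind these ends were shUGDH-1 replicate 2 (2 lower), shUGDH-2 replicate 1 (2 higher, 3 lower, 496 of all genes) and shNT replicates 2 and 3 (2 higher each). RLE, no filter, only 2 groups and the non-robust fit moved no count by over 1.5 times, and no call of a named gene turned direction in any of the 15 alternatives. Replicate numbers showed no clear pairing of the samples: correlations of same-numbered libraries ran from -0.041 to 0.069 in 9 pairs, none over 0.1. With 3 libraries per hairpin, this check cannot tell whether same-numbered cultures were handled together. With the replicate block, members with shUGDH-1 numbered 3 higher and 5 lower, with shUGDH-2 4 and 6, and 4 changed with both, beside 1298 and 1284 of all genes with shUGDH-1. Calls near the threshold moved with 1 library, and FPGT is limited by its depth of 15 to 57 counts.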
